A study of Mus musculus with 51 samples.

Results

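The genes described here are 48 secreted signalling genes and close partners of the WNT, bone morphogenetic protein (BMP) and hedgehog families, taken by name from a list out of the 24564 genes in the deposited count table. They comprise 18 WNT ligands, 9 WNT inhibitors, 4 WNT enhancers, 8 BMP ligands, 3 BMP inhibitors, 3 hedgehog ligands and 3 hedgehog receptors or targets. The assay was Smart-seq2, which sequences whole transcripts from little RNA, in neurons collected by fluorescence-activated cell sorting from the adult mouse midbrain. The question put by the study was how expression changes in such neurons without a working Polycomb repressive complex 2 (PRC2), of which Eed is a core subunit. Midbrain dopaminergic neurons (mDA) came from the strain DatCreEed, named for a Cre recombinase under the dopamine transporter gene, and serotonergic neurons (5HT) from the strain SertCreEed, named for a Cre under the serotonin transporter gene. In each strain, animals labelled wt were set against animals labelled PRC2 mutant at 4 and at 8 months of age. There were 51 libraries: 9 wt and 10 mutant mDA at 4 months, 8 of either at 8 months, and 4 in all 4 groups of 5HT. Every library had a biological replicate number of its own, and the labels pair none of them across genotypes. All 5HT libraries were in sequencing set1, and the mDA libraries were spread over set1, set2 and set3.

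WNT proteins bind Frizzled receptors with LRP co-receptors and act through beta-catenin or through routes that do not need it, secreted Frizzled-related proteins and Dickkopf proteins restrain them, and R-spondins keep the receptors at the cell surface. BMPs signal through serine-threonine kinase receptors to SMAD proteins and are held off by noggin, chordin and gremlin, while hedgehog proteins bind Patched, free Smoothened and switch on Gli factors. In the embryo, sonic hedgehog and several WNTs pattern the ventral midbrain from which dopaminergic neurons arise, and many genes of these families are known targets of PRC2, which deposits a repressive histone mark at CpG-rich promoters.

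Because CpG content is a known property of PRC2 target promoters, the letters CG (which read the same on both strands and cannot overlap each other) were counted in promoter windows from RefSeq (GRCm38.p6), from 250 bases before to 50 bases after a gene's start. A window was found for 33 of the 48 members, the others being Bmp2, Bmp3, Bmp7, Dkk3, Gdf6, Gli1, Nog, Rspo2, Rspo3, Sfrp1, Sfrp4, Shh, Wnt10a, Wnt5a and Wnt7b. The members' windows held a median of 27 CG, against a median of 7 over all 27025 genes with a window. At least 15 CG were present in 25 of the 33 members (75.8%) and in 35.2% of all genes. Wnt5b and Wnt11 had more than 1 window, and the window at the lowest coordinate was counted. For Wnt5b it held 7 CG, and its other windows held 4 and 47. For Wnt11 it held 45 CG, and the other window held 23. Over all genes the first window listed for each gene was counted. The range among members was wide, from 4 to 58 CG. Wnt7a and Dkk2 are printed to show that range, since both had more counts in mDA than in 5HT of wt animals while their windows differ. The Wnt7a window held 42 CG, more than 97.0% of all windows, and the Dkk2 window held 11, more than 58.6% of them. The 250 bases before the start used for each window follow, with CG in capitals. They lie at chr6:91411354-91411603 on the minus strand (34 CG) and chr3:132085042-132085291 on the plus strand (7 CG). The position given for the Dkk2 gene begins at 132085266, before the start used for its window. The last bases printed for Dkk2 therefore lie inside the gene as positioned.
Wnt7a: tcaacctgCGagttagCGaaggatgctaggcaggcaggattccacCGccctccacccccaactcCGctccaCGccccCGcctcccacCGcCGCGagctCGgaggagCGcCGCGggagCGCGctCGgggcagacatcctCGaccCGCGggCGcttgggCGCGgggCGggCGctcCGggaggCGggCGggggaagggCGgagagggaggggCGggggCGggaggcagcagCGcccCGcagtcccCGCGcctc
Dkk2: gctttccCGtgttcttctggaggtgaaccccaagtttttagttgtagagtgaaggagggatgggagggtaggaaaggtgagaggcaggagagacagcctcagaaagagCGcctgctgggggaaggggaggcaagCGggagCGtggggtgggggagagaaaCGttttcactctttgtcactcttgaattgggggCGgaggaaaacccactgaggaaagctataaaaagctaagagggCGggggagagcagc

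Errors given with ± are SDs over the libraries of a group. Total counts per library ran from 1644460 to 12250492, so that 3 counts, taken as the floor of detection, stood for 0.238 to 1.86 CPM (counts scaled to a common library total, on TMM-scaled library sizes, a scaling that evens out differences in RNA composition). The dopaminergic marker Th averaged 1694 ± 353 CPM in wt mDA at 8 months and 4.96 to 20.8 CPM as group means in 5HT, and the serotonergic marker Tph2 averaged 2729 ± 506 CPM in wt 5HT at 8 months, so that the wt libraries carried the markers of their labels. Whole-gene Eed counts cannot isolate deleted exons and check no label: the libraries ranged from 14.1 to 38.8 CPM in mutants and 6.96 to 25 in wt mDA at 4 months, and 9.08 to 37.2 against 8.39 to 17 at 8 months. The 5HT mutants of 4 months had 21.4 to 29.3 (wt 7.49 to 14.4), those of 8 months 13.3 to 25.8 (wt 11.4 to 15.8). Ribosomal RNA of Rn45s took 5.55% to 24.9% of counts, with the 4 set1 mutants of mDA at 4 months at 18.8% to 24.9%.

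Per length of transcript, Dkk3, Wnt5a, Chrd, Sfrp2, Shh and Wnt7b were the 6 most abundant members in each of the 4 mDA groups. In 5HT mutants at 4 months Wnt10b (6.68 CPM per kb) and Wnt3 (5.23) came after Chrd and Dkk3, and in 5HT wt at 8 months Sfrp1 (5.32) stood above Sfrp2 (3.88). Of the 48 members 27 averaged under 5 CPM in every group. On the scale of CPM per kb of transcript, Dkk3, a secreted Dickkopf family protein, led in 7 of the 8 groups, with group means of 21.2 to 31.4 in mDA and 8.76 to 19.7 in 5HT. Chrd (chordin, a BMP trap) led in the remaining group, 5HT mutants at 4 months, with 8.99 ± 4.48 (SD, n = 4), which overlapped 8.76 ± 3.62 for Dkk3 there. In mDA mutants at 8 months Wnt5a stood second with 17.9 ± 3.15 (n = 8), against 5.87 ± 1.74 in wt of that age, where it followed Chrd and Sfrp2 within their spread. Shh, the sonic hedgehog ligand, had 4.58 to 6.84 CPM per kb in the 4 mDA groups. A library had counts for 23 to 45 of the 48 members. Averaged over a group, 21 members reached 5 CPM in at least 1 group and 27 did not. Members whose mean was under 1 CPM numbered 7 to 14 in the mDA groups and 14 to 22 in the 5HT groups. In 58 of 115 cases in 5HT, against 21 of 170 in mDA, 1 library held over 50% of a member's summed CPM in a group with at least 20 counts. A mean ± SD of such a member rests largely on that library. The 5HT groups held 4 libraries each and the mDA groups 8 to 10. A single library passes 50% more easily in the smaller groups, so the 2 counts do not compare the spread of the neuron types.

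**Figure D1:**
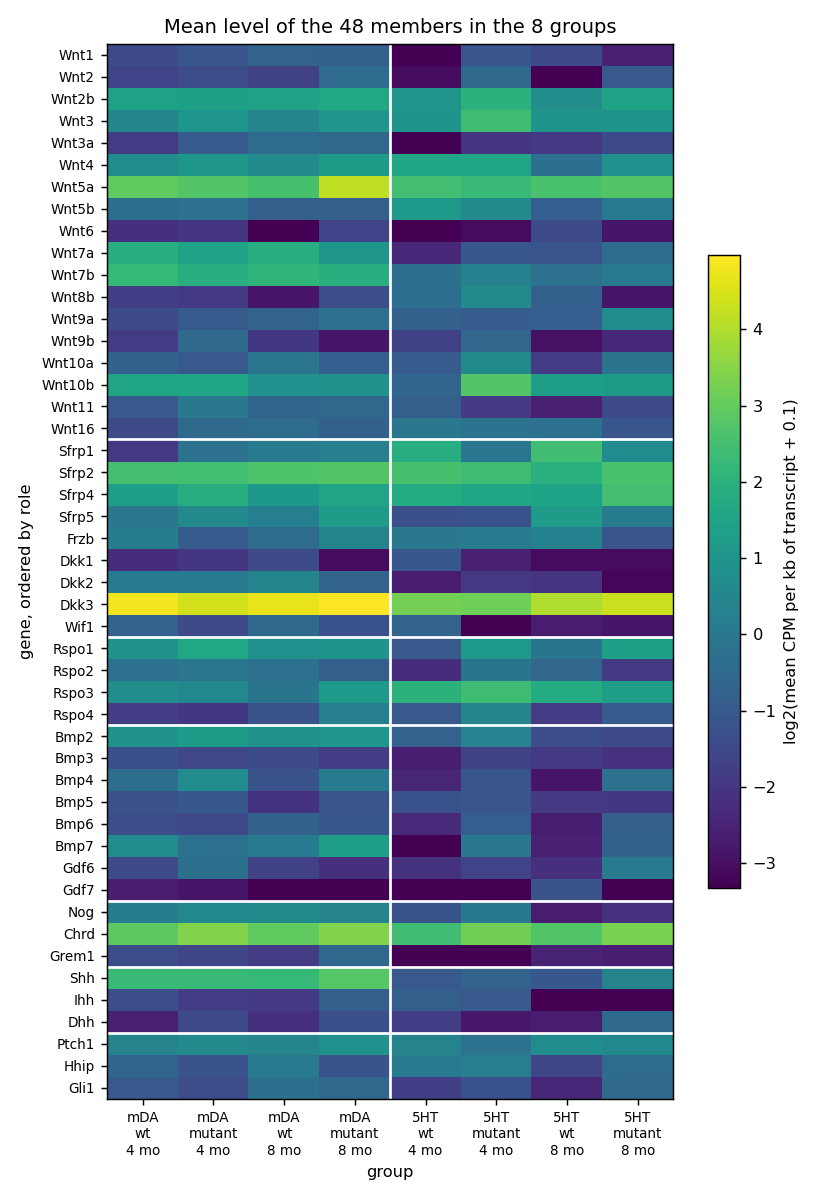
Group means of the 48 members (rows, ordered by role) in the 8 groups (columns), coloured by the log2 of CPM per kb of transcript plus a small offset. Dkk3 is bright in every column, Wnt5a is brightest in mDA mutants at 8 months, and Wnt7a, Wnt7b and Shh are bright in the 4 mDA columns only.

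Wnt5a, a WNT ligand known mainly for acting without beta-catenin, was 3.21-fold higher in mDA mutants than in wt at 8 months and was the only member edgeR called in any of the 4 comparisons of mutant with wt, with low counts filtered. The gene lies at chr14:28504543-28527448 (GRCm38.p6). At 8 months the 8 mutant libraries ran from 93.8 through a median of 126 to 157 CPM (mean 125 ± 22.1), and the 8 wt libraries from 18.7 through 44.3 to 55.1 CPM (mean 41.2 ± 12.2). The lowest mutant library lay above the highest wt library, so the groups did not overlap. The log2 fold change was 1.68 (SE 0.20, 95% interval 1.28 to 2.09, adjusted p = 9.28e-08 with edgeR's quasi-likelihood test and Benjamini-Hochberg adjustment over 15425 genes). At 4 months the mDA mutants ran from 27.3 through 43.8 to 81.1 CPM (mean 46.5 ± 18.6, n = 10) and wt from 31.5 through 58.9 to 69.1 CPM (mean 53.4 ± 12.8, n = 9). Those groups overlapped almost fully, and the log2 fold change was -0.14 (95% interval -0.47 to 0.18, adjusted p = 0.748 with edgeR). The difference between the genotype effects at 8 and at 4 months was itself tested and came to 1.83 (log2, with SE 0.25 and an adjusted p of 9.87e-06 from edgeR).

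In 5HT neurons no such difference in Wnt5a was called. At 4 months the 4 mutants had 30.3, 36.9, 31.3 and 35.5 CPM and the 4 wt libraries 40.4, 19.5, 21.8 and 72.2 CPM, so the mutants lay inside the wt range. At 8 months the mutants had 33.3, 54.5, 66.6 and 32.6 CPM and the wt libraries 46.2, 38.1, 42.8 and 38.3 CPM, with mutants on either side of wt. The log2 fold changes were -0.16 (95% interval -0.88 to 0.56) and 0.23 (95% interval -0.49 to 0.96), with adjusted p-values of 0.988 and 1.0 from edgeR. Set against each other at 8 months, the genotype effect was 1.48 higher in mDA than in 5HT on the log2 scale (95% interval 0.73 to 2.22), which did not pass edgeR's threshold (adjusted p = 0.0886) and passed that of DESeq2 (1.42, adjusted p = 0.0181). Wild-type levels of Wnt5a differed by 0.22 between mDA and 5HT (log2, 95% interval -0.19 to 0.63).

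**Figure D2:**
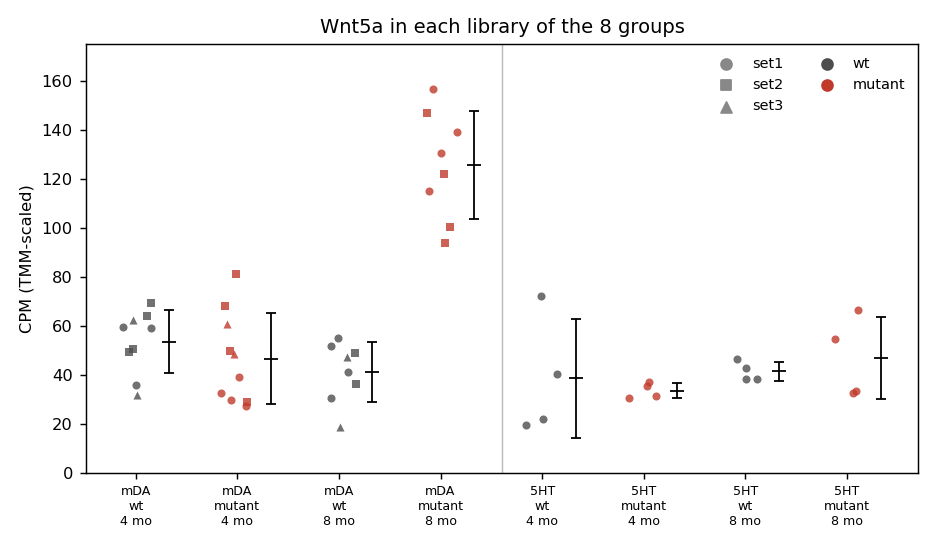
Wnt5a in CPM (y axis) in each library of the 8 groups (x axis), coloured by genotype and shaped by sequencing set, with the mean ± SD beside each group. The 8 mDA mutants at 8 months sit between 93.8 and 157 CPM, above every library of the other 7 groups.

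The rise was present in both sequencing sets that hold mutants of 8 months. Set3 held only 2 wt libraries of that age, which the set term takes up, so the fitted difference rests on set1 and set2. In set1 the mutants ran from 115 to 157 CPM and wt from 30.6 to 55.1, and in set2 from 93.8 to 146.7 and from 36.1 to 48.8. Fitted within set1 alone the log2 fold change was 1.71 (adjusted p = 9.25e-06 with edgeR) and within set2 alone 1.5 (adjusted p = 0.0395 with edgeR). Other marker groups moved with it at that age. Of the dopaminergic markers 6 of 7 fell in mDA mutants, with summed levels of 3041 to 3981 CPM against 5177 to 9543 in wt, and of the markers of GABA neurons 4 of 4 rose, with sums of 487 to 708 against 112 to 269.2 CPM. Of 5 endothelial markers 1 rose, with sums of 3.61 to 363 against 2.79 to 21.1 CPM, and the mean of each of the 5 was above 0 in both groups. In the 5 mutant libraries whose endothelial sum was no higher than the highest wt sum, Wnt5a was 100 to 157 CPM, and in the other 3 it was 93.8 to 146.7. The part of these marker changes in the Wnt5a result was not tested. In sorted bulk libraries a change in the number of cells of a type and a change in RNA per cell cannot be told apart.

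Summed over all members, mDA mutants at 8 months had 442.9 ± 34.5 CPM and wt 307 ± 35.8 (n = 8 each). Wnt5a made up 28.2 ± 3.86% of the sum in those mutants and 13.6 ± 4.55% in wt. Without Wnt5a the sums were 317 ± 24.7 CPM, from 274 to 360, and 266 ± 39.5 CPM, from 225.6 to 324, and overlapped. In the other 6 groups Wnt5a made up 13.2% to 18.5% of the sum on average.

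No further member was called in mDA neurons. At 8 months 1 of the 32 members tested was called, Wnt5a, or 3.12% of them, close to the 4.32% called among all 15425 genes tested (666 genes), and 3 members had an unadjusted p under 0.05, beside 17.5%. At 4 months 0 of 32 members were called by edgeR, where 1.17% of all genes were, with 2 members at an unadjusted p under 0.05 (14.5% of all genes) and 0 called by DESeq2 (2.28%). Those 2 were Chrd (0.49 on the log2 scale, adjusted p = 0.211) and Sfrp1 (2.00, adjusted p = 0.224), and at 8 months the members with such a p besides Wnt5a were Chrd (0.60, adjusted p = 0.145) and the BMP trap Grem1 (2.65, adjusted p = 0.211, all from edgeR). The median log2 fold change of the tested members was 0.09 at 4 months, with 17 above and 15 below 0, beside -0.01 over all genes. At 8 months it was 0.22, with 21 above and 11 below 0, beside 0.02. Of the members, 16 were too low to be tested in mDA. The difference between months called 1 of 32 members, Wnt5a, beside 6.11% of all genes.

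**Figure D3:**
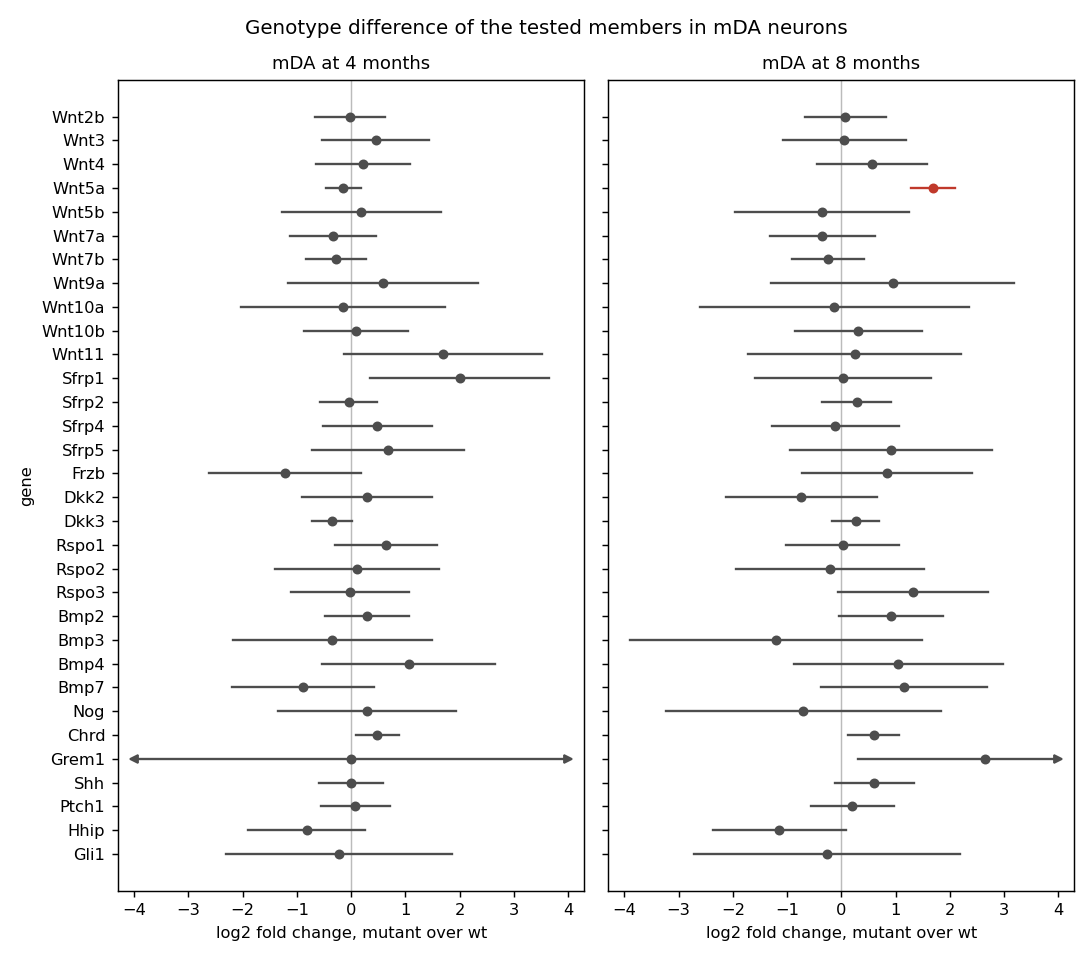
Log2 fold change of mutant over wt (x axis) with its 95% interval for the 32 members tested in mDA neurons, at 4 months (left) and 8 months (right), with called members in red and arrowheads where an interval runs past the axis. Wnt5a at 8 months, at 1.68, is the only red point, and the other intervals cross 0 apart from those of Chrd, of Sfrp1 at 4 months and of Grem1 at 8 months.

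By edgeR no member was called in 5HT neurons. At 4 months 0 of the 28 members tested were called by edgeR, where 0.0128% of 15633 genes (2 genes) were, with 3 members at an unadjusted p under 0.05 (6.4% of all genes) and 1, Wnt10b, called by DESeq2 (0.307%). At 8 months 0 of 28 were called, beside 0.397% of all genes (62), with 1 member at an unadjusted p under 0.05 (4.9% of all genes) and 0 called by DESeq2 (1.13%). The difference between months called 0 of 28, beside 0.0128% of all genes, with 2 members at an unadjusted p under 0.05 (3.97% of all genes) and 0 called by DESeq2 (0.179%). The tested members' median log2 fold change was 0.45 at 4 months (18 above and 10 below 0) and 0.58 at 8 months (19 above and 9 below 0), beside 0.01 over all genes in each. Of the members, 20 were too low to be tested in 5HT.

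The member nearest to a call in 5HT was Wnt10b, a ligand of the beta-catenin route. Its 4 mutant libraries of 4 months had 6.60, 19.4, 4.82 and 28.6 CPM and the 4 wt libraries 0.208, 2.93, 1.24 and 0.539 CPM. All mutants lay above all wt libraries. The log2 fold change was 3.54 (SE 0.93, 95% interval 1.62 to 5.47), with an adjusted p of 0.419 from edgeR and 0.0143 from DESeq2, which called it. At 8 months Wnt10b averaged 4.89 ± 5.18 CPM in mutants and 5.32 ± 2.35 in wt, which overlapped. Wnt10b lies 11.7 kb from Wnt1 on chromosome 15, and Wnt1 had 11 counts in 2 of the 4 mutants of 4 months and 0 in wt. The other members with an unadjusted p under 0.05 were Sfrp1 at 4 months (-3.71, adjusted p = 0.620), Wnt3 at 4 months (1.52, adjusted p = 0.738) and Wnt8b at 8 months (-3.81, adjusted p = 1.0, all from edgeR).

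Mutant and wt libraries of 5HT did not overlap in 2 of 48 members at 4 months, Wnt10b and Wnt2b, and in 3 at 8 months, Shh, Dhh and Bmp4, all higher in mutants. That is 4.17% and 6.25% of the members, beside 2.1% and 4.75% of all 24564 genes. Shh had 2.25, 3.30, 3.82 and 4.35 CPM in the mutants of 8 months and 0, 1.99, 1.68 and 0.700 in wt, a log2 fold change of 1.83 with a 95% interval of -1.14 to 4.79. Dhh, the desert hedgehog ligand, had 1.04, 2.43, 2.16 and 4.81 CPM in these mutants and 0, 0, 0.765 and 0.175 in wt, a log2 fold change of 3.32 with a 95% interval of -0.30 to 6.94. Neither was called (adjusted p = 1.0 from edgeR for each). In the same 5HT mutants of 8 months 4 of 7 serotonergic markers fell, with sums of 2468 to 3087 CPM against 9085 to 10696 in wt, and 2 of 4 GABA neuron markers rose. Their part in the members' values was not tested.

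**Figure D4:**
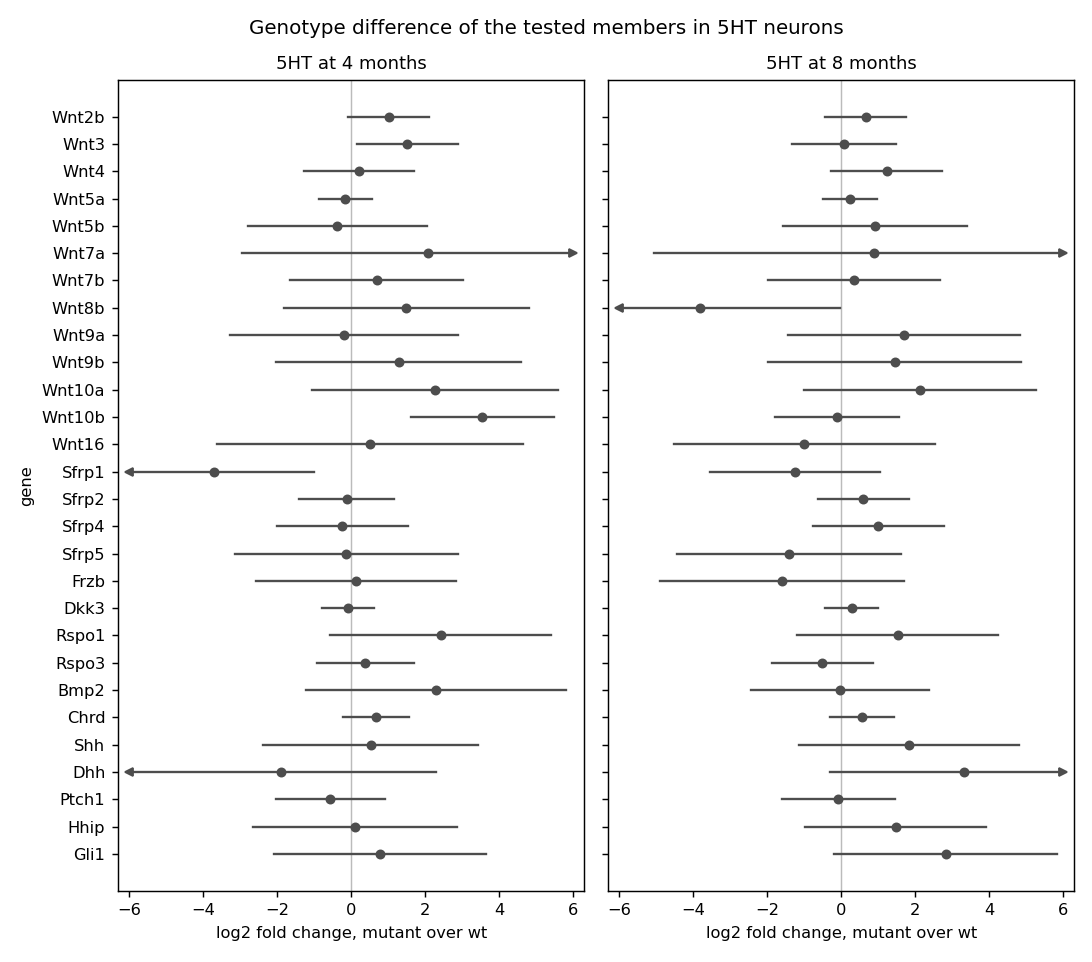
Log2 fold change of mutant over wt (x axis) with its 95% interval for the 28 members tested in 5HT neurons, at 4 months (left) and 8 months (right), with arrowheads where an interval runs past the axis. No point is red, since edgeR called no member, and Wnt10b at 4 months, at 3.54, has an interval that stays above 0.

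The genotype effect was also compared between neuron types in a fit of all 51 libraries. At 4 months 0 of 45 members were called by edgeR, beside 0.0925% of 18386 genes, with 4 members at an unadjusted p under 0.05 (9.4% of all genes). DESeq2 called 3 members (0.995% of all genes), Bmp7 (-7.16, adjusted p = 0.00244), Sfrp1 (6.12, adjusted p = 0.0150) and Wnt10b (-3.44, adjusted p = 0.0204), where a negative value is a genotype effect lower in mDA than in 5HT. At 8 months 0 of 45 were called by edgeR, beside 0.19% of all genes, with 4 at an unadjusted p under 0.05 (7.77% of all genes) and 1, Wnt5a, called by DESeq2 (0.674%). Bmp7, a BMP ligand, had 0 counts in the 4 wt 5HT libraries of 4 months and 0, 47, 1 and 25 counts in the 4 mutants. Of the 4 mutant libraries, 2 carried nearly all of the counts.

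Among the other WNT ligands of the beta-catenin type, Wnt7a and Wnt7b had higher group means in mDA than in 5HT neurons and were not called by genotype. Wnt7a averaged 11.6 ± 5.65 CPM in wt and 8.47 ± 5.77 in mutant mDA at 4 months, 11 ± 4.31 and 6.4 ± 4.27 at 8 months, and 0.288 to 2.08 over the 5HT groups. Wnt7b averaged 15.5 ± 4.59 and 12.2 ± 5.66 CPM in mDA at 4 months, 14.4 ± 5.57 and 12.2 ± 5.67 at 8 months, and 2.53 to 3.92 over the 5HT groups. The log2 fold changes of mutant over wt in mDA were -0.33 and -0.35 for Wnt7a and -0.28 and -0.24 for Wnt7b at 4 and 8 months, with all 4 intervals crossing 0.

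Wnt3, another ligand of the beta-catenin route, averaged 16.1 ± 9.93 CPM in 5HT mutants and 5.73 ± 2.59 in 5HT wt at 4 months. Its 8-month 5HT means were 5.70 ± 2.53 and 5.68 ± 3.30 CPM in the same order, and its mDA means were 3.88 to 5.96 CPM. The 4 mutants of 4 months ran from 6.26 to 27.3 CPM and wt from 2.93 to 9.21, so they overlapped. Wnt3 overlaps Wnt9b by 1098 bases on chromosome 11, and since the use of strand in counting is not given, reads from that stretch cannot be told apart. Wnt2b averaged 13.1 ± 5.06 CPM in 5HT mutants and 6.28 ± 0.402 in wt at 4 months, where the libraries did not overlap (1.01 on the log2 scale, 95% interval -0.09 to 2.11). In 5HT at 8 months Wnt2b averaged 8.88 ± 1.83 and 5.4 ± 2.86 CPM, and in mDA its 4 group means lay between 8.36 and 9.82, closer to each other than their SDs of 2.51 to 5.64.

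Wnt10b averaged 6.51 ± 3.72 and 6.43 ± 3.22 CPM in wt and mutant mDA at 4 months and 3.82 ± 3.65 and 4.02 ± 2.13 at 8 months, without the difference seen in 5HT at 4 months. Wnt4, a ligand with roles in kidney and synapse formation, averaged 6.29 ± 2.77 and 8.34 ± 7.28 CPM in mDA at 4 months and 6.23 ± 3.96 and 9.46 ± 5.36 at 8 months, wt first. In 5HT it averaged 12.3 ± 9.86 and 12.1 ± 8.38 at 4 months and 3.02 ± 2.11 and 7.26 ± 2.50 at 8 months. None of the 4 Wnt4 differences passed the test. Wnt5b, a close relative of Wnt5a, averaged 1.12 ± 1.81 CPM in mDA mutants and 1.13 ± 0.827 in wt at 8 months, and 1.65 and 1.79 at 4 months. Its highest mean was 5.01 ± 3.37 in 5HT wt at 4 months, followed by 3.48 ± 3.37 in the mutants of that age. Wnt9a reached 5 CPM only in 5HT mutants at 8 months (5.15 ± 7.95 CPM), where the SD exceeds the mean, and had means of 0.917 to 2.52 in the other 7 groups. Neither Wnt5b nor Wnt9a was called in any comparison of mutant with wt.

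Among the WNT inhibitors, Dkk3 averaged 94.4 ± 31.0 CPM in wt and 71.3 ± 43.0 in mutant mDA at 4 months, and 86.8 ± 38.1 and 106 ± 16.7 at 8 months. In 5HT it averaged 31.5 ± 11.6 and 29.4 ± 12.1 at 4 months and 52.7 ± 11.6 and 66.3 ± 20.1 at 8 months. In mDA the estimate was lower in mutants at 4 months (-0.36) and higher at 8 months (0.27), and the difference of 0.62 between the months was not called (adjusted p = 0.186 with edgeR). Sfrp2, a secreted Frizzled-related protein, had group means of 10.8 to 13.3 CPM in mDA and 7.77 to 11.8 in 5HT. Sfrp1 averaged 0.731 ± 1.01 and 3.43 ± 3.04 CPM in mDA at 4 months, 4.13 ± 7.10 and 4.91 ± 3.79 at 8 months, wt first. In 5HT its means were 15.2 ± 17 and 3.73 ± 4.34 at 4 months and 23.3 ± 25.7 and 6.77 ± 6.39 at 8 months. The 5HT wt libraries of 4 months had 37.2, 3.58, 0.177 and 19.9 CPM, so that this mean stands for very unlike libraries. Sfrp4 averaged 3.59 to 6.25 CPM over the mDA groups, and 9.69 ± 6.0 in mutant and 4.79 ± 2.13 in wt 5HT at 8 months, with 4.99 and 5.92 at 4 months.

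The WNT enhancers that reached 5 CPM were Rspo1 and Rspo3, which amplify WNT signals through Lgr receptors. Rspo3 averaged 4.82 ± 2.40 and 4.25 ± 2.62 CPM in mDA at 4 months and 2.58 ± 1.81 and 6.60 ± 4.83 at 8 months, wt first, a difference of 1.32 on the log2 scale at 8 months (95% interval -0.07 to 2.71). In 5HT it averaged 12.2 ± 4.66 and 15.8 ± 2.42 at 4 months and 10.4 ± 4.21 and 7.46 ± 5.42 at 8 months. Rspo1 had means of 3.08 to 5.44 CPM in mDA, with the highest in mutants of 4 months. In 5HT it averaged 0.728 ± 1.46 and 3.82 ± 1.69 at 4 months and 1.54 ± 1.10 and 4.57 ± 3.76 at 8 months, wt first, without a call.

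Among BMP ligands only Bmp2 and Bmp7 reached 5 CPM. Bmp2 averaged 6.34 to 7.86 CPM in the mDA groups, and the mean of wt at 8 months, 6.34 ± 8.45, was carried by 1 library at 27.0 CPM. Over the 5HT groups Bmp2 averaged 0.908 to 4.21 CPM. Bmp7 averaged 5.51 ± 5.88 and 2.79 ± 3.5 CPM in mDA at 4 months and 3.52 ± 2.61 and 8.58 ± 5.33 at 8 months, wt first. Its genotype estimate turned from -0.89 at 4 months to 1.16 at 8 months, and the difference of 2.05 was not called (adjusted p = 0.220 with edgeR). Among BMP inhibitors Chrd was the abundant one. It averaged 24.1 ± 8.53 and 34.6 ± 9.99 CPM in mDA at 4 months, 25.1 ± 6.92 and 34.7 ± 12.3 at 8 months, wt first. In 5HT it averaged 17.6 ± 7.94 and 29.4 ± 14.7 at 4 months and 21.4 ± 9.61 and 32.4 ± 8.33 at 8 months. Mutant means were above wt means in all 4 comparisons, by 0.49, 0.60, 0.66 and 0.56 on the log2 scale, and the libraries overlapped in each. None of the 4 was called, and within set3 alone the 4-month value in mDA was -0.20. That set held 2 male mutants and 2 female wt at 4 months, so sex and genotype cannot be told apart in it.

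In the hedgehog group, Shh averaged 13.5 ± 5.81 and 13.3 ± 4.41 CPM in mDA at 4 months and 13.0 ± 6.10 and 19.5 ± 6.84 at 8 months, wt first. The 8-month difference of 0.61 on the log2 scale had a 95% interval of -0.12 to 1.33. In 5HT Shh stayed at or under 3.43 CPM in every group mean. Ptch1, the hedgehog receptor and itself a target of the pathway, had means of 6.17 to 13.6 CPM over the 8 groups. At both months its mutant mean was above wt in mDA and below wt in 5HT, and it was not called by genotype. Hhip, a membrane-bound hedgehog trap that is also a target, averaged 4.96 ± 2.99 and 3.05 ± 2.47 CPM in mDA at 4 months and 8.51 ± 8.06 and 3.13 ± 1.92 at 8 months. Its estimates in mDA were below 0 at both months (-0.82 and -1.14) with intervals that crossed 0. In 5HT it averaged 2.11 to 9.83 CPM with an SD near or above the mean in 3 of 4 groups.

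The other 27 members averaged under 5 CPM in every group, and 12 of the 48 were too low to be tested in either fit of mutant against wt: Wnt1, Wnt2, Wnt3a, Wnt6, Dkk1, Wif1, Rspo4, Bmp5, Bmp6, Gdf6, Gdf7 and Ihh. The highest group mean among the 27 was 4.92 CPM (Wnt8b in 5HT mutants at 4 months) and the lowest of the highest means was 0.469 (Gdf7, in 5HT wt at 8 months). Some were counted in mutants of a comparison and in none of its wt libraries. Wnt6 had 25 counts in 4 of 8 mDA mutants at 8 months. Wnt2 had 22 counts in 3 of 4 5HT mutants at 8 months. Wnt3a had 8 counts in 3 of 4 5HT mutants at 4 months. The reverse was seen too, in 5HT. Wif1 was at 0 in mutants and 0.519 CPM per kb in wt at 4 months, and Gdf7 at 0 and 0.335 at 8 months. How many of all genes had either pattern was not counted. The counts of these members are few, and no filtered fit of mutant against wt tested them. With no filter on low counts, Wnt6 was called in mDA at 8 months.

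Without regard to PRC2, the wt neurons of the 2 types differed in 12 of the 33 members tested (36.4%), beside 21.7% of all 16178 genes (3513) by edgeR, with 1 sex term and both months averaged. DESeq2 called 13 members, beside 25.5% of all genes. Higher in mDA were the ligands Wnt7a, Wnt7b, Shh, Bmp2, Bmp6 and Bmp7 and the inhibitors Dkk2, Dkk3 and Nog (9 members, beside 11.3% of all genes). Lower in mDA were the ligand Wnt8b, the enhancer Rspo3 and the inhibitor Sfrp1 (3 members, beside 10.4% of all genes). The members' median log2 fold change was 0.95, with 24 above and 9 below 0, beside 0.03 over all genes. Neuron type and mouse line cannot be told apart. Sequencing set1 held 7 of the 17 wt mDA libraries and all 8 of 5HT. Within it 8 of the 12 were called: Wnt7a, Wnt7b, Shh, Bmp2, Bmp7, Dkk2, Dkk3 and Sfrp1. Of all genes 12.6% were called there. The 12 were picked by a fit that includes these same libraries, so their share cannot be set beside that of all genes. With sex fitted within each neuron type 8 were called as well, those without Bmp2, Bmp6, Nog and Wnt8b. That form was run first, and the fit was changed to 1 sex term after both results were seen. Of 6 oligodendrocyte markers 4 were lower in wt mDA too. Their sums were 377 to 1395 CPM in wt mDA at 4 months and 463 to 877 at 8 months. In wt 5HT they were 592 to 1570 and 925 to 1412. Some markers of other non-neuronal cells were called as well by edgeR. Lower in wt mDA were Aldoc (astrocyte, -1.53 on the log2 scale), Cldn5 (endothelial, -3.67), Pdgfrb (mural, -1.96), Csf1r (microglia, -1.34) and Col1a2 (fibroblast, -1.61). Higher were Ttr (choroid plexus, 4.28) and the oligodendrocyte precursor markers Lhfpl3 (0.79) and C1ql1 (1.69). The part of all these markers in the members' differences was not tested.

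Wnt7b (chr15:85535437-85581821) ran from 4.95 through a median of 15.8 to 22.5 CPM in the 17 wt mDA libraries and from 0.326 through 2.10 to 7.28 in the 8 wt 5HT libraries. Of the mDA libraries 16 of 17 lay above all 5HT libraries, and the log2 fold change was 2.45 (SE 0.37, adjusted p = 3.04e-06 with edgeR), or 3.12 without 5HT replicate S367 and 2.10 within set1. Wnt7a (chr6:91363981-91411353), whose promoter window held 42 CG, ran from 3.58 through 11.6 to 19.8 CPM in mDA and from 0 through 0.0886 to 3.98 in 5HT, where 4 of 8 libraries were at 0. Of the mDA libraries 15 of 17 lay above all 5HT libraries, and the log2 fold change was 4.32 (SE 0.64, adjusted p = 2.67e-06 with edgeR). It was 4.70 within set1, 5.15 without 5HT replicate S369 and 5.57 without S383, which held 88.0% of the summed Wnt7a CPM of its group. Both are ligands of the beta-catenin route best known in forebrain development and in brain vessels.

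Shh (chr5:28456840-28467101) ran from 2.56 through 13.8 to 23.8 CPM in mDA and from 0 through 0.870 to 3.54 in 5HT. It was higher in 16 of 17 mDA libraries than in any 5HT library, with a log2 fold change of 3.52 (SE 0.55, adjusted p = 6.04e-06 with edgeR), or 4.28 without 5HT replicate S373 and 4.25 within set1. Bmp7 (chr2:172868012-172940321) ran from 0.523 through 3.76 to 17.9 CPM in mDA and from 0 to 0.542 in 5HT, where 5 of 8 libraries were at 0. Of the mDA libraries 16 of 17 lay above all 5HT libraries, with a log2 fold change of 5.54 (SE 0.97, adjusted p = 5.36e-05 with edgeR), a size that depends on the few 5HT counts. Among the other BMP ligands, Bmp2 (chr2:133552159-133562896) ran from 1.04 through 5.08 to 27.0 CPM in mDA and from 0 through 0.592 to 4.85 in 5HT. Its log2 fold change was 2.64 (SE 0.69, adjusted p = 0.00488 with edgeR), or 1.99 without mDA replicate C250, 4.28 without 5HT replicate S382 and 3.35 within set1. Bmp6 ran from 0.214 to 3.85 CPM in mDA and from 0 to 1.3 in 5HT, a log2 fold change of 2.23 (SE 0.80, adjusted p = 0.0437 with edgeR). Its call was lost when any of 8 libraries was left out (C240, D943, S381, S383, S385, S367, S373 or S374, adjusted p from 0.0616 to 0.0903 with edgeR), and it was 3.24 without S369. Its counts did not pass the filter within set1 or when D296, C47, D107 or C250 was left out.

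Dkk2 (chr3:132085266-132180304), an inhibitor that binds LRP co-receptors and whose promoter window held 11 CG, ran from 0.442 through 3.73 to 13.2 CPM in mDA and from 0 through 0.267 to 1.40 in 5HT. It was higher by 3.41 (SE 0.74, adjusted p = 0.000741 with edgeR), or by 4.08 without 5HT replicate S374, with 14 of 17 mDA libraries above all 5HT libraries. Dkk3 (chr7:112116019-112159482) ran from 36.1 through 84.9 to 151 CPM in mDA and from 19.1 through 42.2 to 63.3 in 5HT, a log2 fold change of 1.13 (SE 0.22, adjusted p = 0.000158 with edgeR). Noggin (Nog, a BMP trap) was low, from 0 through 0.864 to 10.3 CPM in mDA and from 0 to 2.34 in 5HT, where 5 of 8 libraries were at 0. Its log2 fold change of 3.14 (SE 1.07, adjusted p = 0.0318 with edgeR) was not called when D833, S382, S385, S367 or S373 was left out (adjusted p from 0.0530 to 0.0722 with edgeR) or within set1 (4.61, adjusted p = 0.0932 with edgeR), and was 5.26 without S374.

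Rspo3 (chr10:29453106-29535867) went the other way, from 1.28 through 3.09 to 9.75 CPM in mDA and from 5.35 through 12.3 to 16 in 5HT. Of the mDA libraries 13 of 17 lay below all 5HT libraries, with a log2 fold change of -1.68 (SE 0.36, adjusted p = 0.000663 with edgeR), but within set1 it was -1.0 and not called (adjusted p = 0.201 with edgeR). Sfrp1 (chr8:23411383-23449632) ran from 0 through 0.581 to 21.4 CPM in mDA and from 0.177 through 13.7 to 58.5 in 5HT, so the types overlapped widely. Its log2 fold change was -3.58 (SE 0.82, adjusted p = 0.00189 with edgeR), or -4.20 with sex fitted within neuron type and -2.97 without 5HT replicate S367. Wnt8b ran from 0 through 0.209 to 3.09 CPM in mDA and from 0 through 1.53 to 7.16 in 5HT, with 7 of 17 and 3 of 8 libraries at 0. Its log2 fold change of -2.87 (SE 0.88, adjusted p = 0.0159 with edgeR) was not called without 5HT replicate S385 (adjusted p = 0.0624 with edgeR), without S369 (-2.11, adjusted p = 0.112 with edgeR) or within set1 (-2.51, adjusted p = 0.234 with edgeR).

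**Figure D5:**
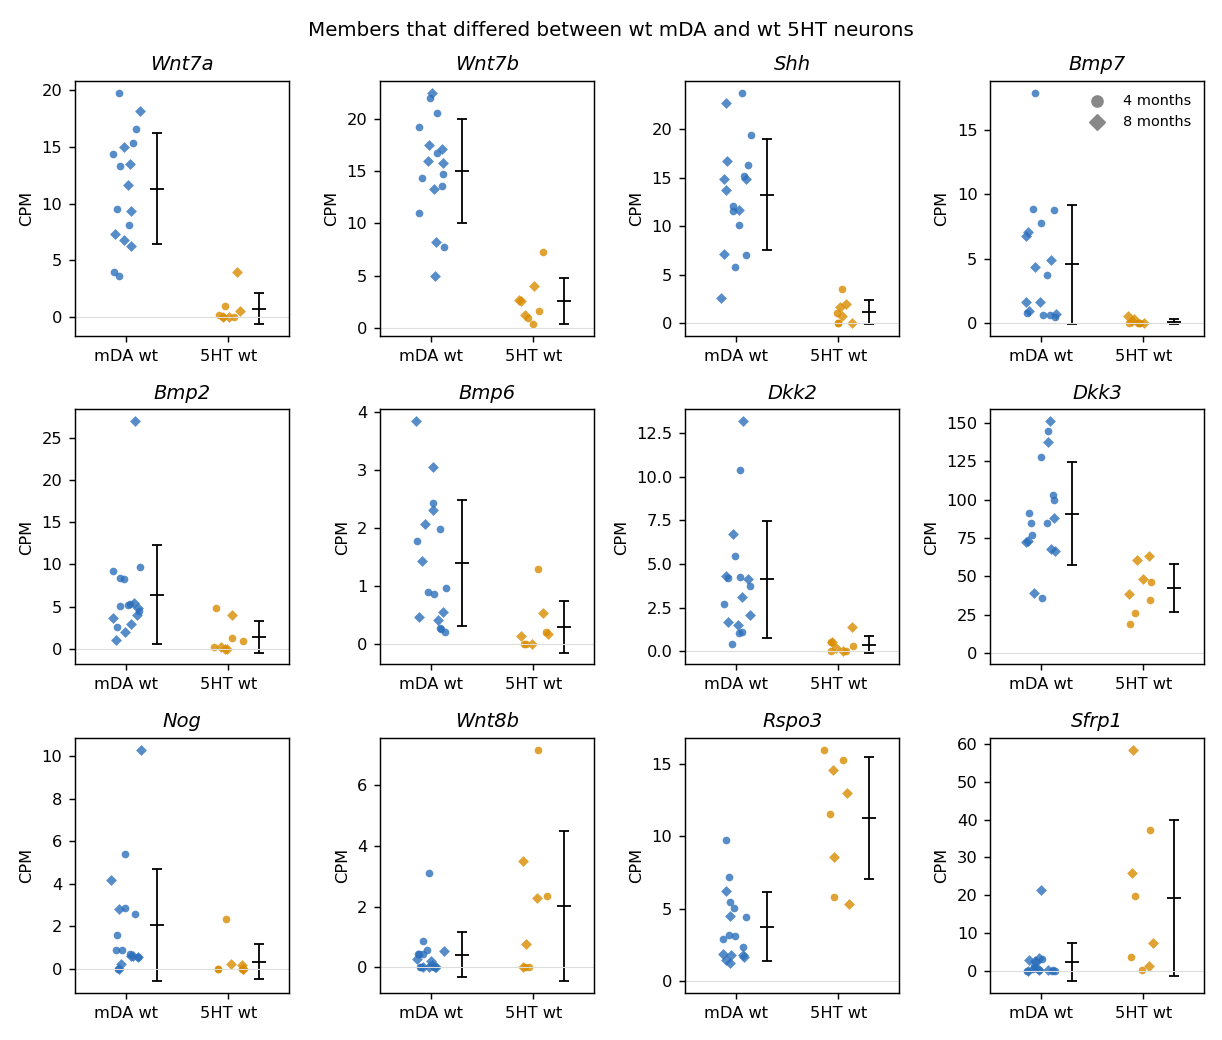
CPM (y axis) of the 12 called members in each of the 17 wt mDA and 8 wt 5HT libraries, circles at 4 months and diamonds at 8 months, with mean ± SD. The means of Wnt7a, Wnt7b, Shh, Bmp7, Bmp2, Bmp6, Dkk2, Dkk3 and Nog are higher in mDA and those of Wnt8b, Rspo3 and Sfrp1 higher in 5HT, and in none of the 12 panels are the types fully apart.

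Receptors, transducers, further inhibitors and targets of the 3 pathways were counted in the same comparisons. In mDA at 8 months 2 of 36 tested WNT pathway genes were called (5.56%) and 4 of 31 BMP pathway genes (12.9%), 2 of which rose and 2 fell, beside 4.32% of all genes. Of 14 hedgehog pathway genes edgeR called 0, with 3 at an unadjusted p under 0.05 beside 17.5% of all genes. Lef1, a transcription factor that works with beta-catenin, rose by 1.90 on the log2 scale (adjusted p = 0.0281 with edgeR), from 4.29 ± 5.4 to 18.9 ± 11.7 CPM (n = 8 each). Apc, a scaffold of the complex that degrades beta-catenin, fell by 0.63 (adjusted p = 0.0173 with edgeR). Of the BMP pathway genes, Bmp1, a protease that cleaves chordin, rose by 1.10 (adjusted p = 0.0383 with edgeR), from 28.1 ± 12.5 to 59.3 ± 11.3 CPM. The BMP-binding protein Bmper rose by 2.04 (adjusted p = 0.0440 with edgeR). Tll1, another chordin-cleaving protease, fell by 1.48 (adjusted p = 0.00690 with edgeR) and Smad4, the shared SMAD partner, fell by 0.82 (adjusted p = 0.0277 with edgeR). The direct targets of a pathway that were members, Ptch1, Hhip and Gli1, were not called at this age.

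In mDA at 4 months 1 of 36 WNT pathway genes was called, Lgr5, a receptor for R-spondins (1.42, adjusted p = 0.0429 with edgeR, from 3.46 ± 1.70 to 8.22 ± 3.74 CPM), or 2.78% beside 1.17% of all genes. None of 31 BMP and 14 hedgehog pathway genes was called by edgeR there, with 4 and 2 at an unadjusted p under 0.05 (14.5% of all genes). The difference between the months called 2 of 36 WNT (Apc -1.0, Gsk3b 0.67), 3 of 31 BMP (Bmpr2 0.77, Tll1 -1.44, Smad4 -0.92) and 1 of 14 hedgehog pathway genes, beside 6.11% of all genes. The last was Gli3, a transcription factor that acts largely as a repressor of hedgehog targets (-2.98, adjusted p = 0.0146 with edgeR), which averaged 2.47 ± 1.78 CPM in wt and 6.78 ± 6.01 in mutants at 4 months and 4.95 ± 3.15 and 1.65 ± 1.15 at 8 months. These pathway counts were not repeated without the 4 set1 mutant libraries of 4 months, where 0.565% of all genes were called. In 5HT 0 of 37 WNT, 0 of 31 BMP and 0 of 13 hedgehog pathway genes were called at either month by edgeR, with 1, 3 and 1 at an unadjusted p under 0.05 at 4 months (6.4% of all genes) and 1, 3 and 0 at 8 months (4.9%). Between the wt neuron types 8 of 38 WNT pathway genes were higher in mDA and 2 lower, 7 of 33 BMP pathway genes were higher and 4 lower, and 3 of 13 hedgehog pathway genes were higher and 0 lower, beside 11.3% of all genes higher and 10.4% lower. Among the last, named after their values were seen, were the hedgehog co-receptor Boc (2.11) and the hedgehog release factor Scube1 (2.21 on the log2 scale).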

How the data were processed

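The authors deposited raw read counts for 24564 genes in 51 RNA-seq libraries. Alignment was by STAR 2.7.0a on the mouse build mm10, per the submitters' processing notes. How reads were assigned to genes, and whether strand was used, is not given in the sources used here. A row for the mCherry reporter was dropped (at most 0.00294% of a library). No library duplicated another (0 identical pairs). Group, set and sex came from the labels.

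Tests used edgeR 4.0.16 in R 4.3.3, with TMM factors, low genes removed by filterByExpr (minimum count 10) and a robust quasi-likelihood fit. A gene was called at an adjusted p (Benjamini-Hochberg) under 0.05. One fit held the 35 mDA libraries, with terms for set within month and for sex. The 16 5HT libraries, all 51 libraries (neuron types) and the 25 wt libraries had fits of their own, with sex as 1 term in the 5HT and wt fits and within neuron type in the fit of all libraries. SE was taken as |log2 fold change| over the root of F, an approximation. CPM used TMM factors over all libraries, and floors and intervals cover counting or fit error only. Alternatives were DESeq2 1.42.0, other scaling, filters and terms, single sets and left-out libraries. The mDA and 5HT fits were tested on simulated data, and the other fits were not. The simulated variation between libraries was the same for both. It was near the coefficient of variation estimated for mDA (0.40) and below that for 5HT (0.55). The 5HT fit was thus checked only at less variation than its libraries have. Positions are from RefSeq (GRCm38.p6). Transcript lengths are those of the longest GENCODE transcript matched through a gene's RefSeq accessions.

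The members and lists were chosen with earlier results of these data known. Full values are given for members called in a comparison of mutant with wt, group means for others reaching 5 CPM in some group, counts and ranges for the rest, and up to 4 called genes with the smallest p per pathway list and comparison. The 12 members called between wt neuron types and those singled out in 5HT were named after their values were seen. Pathway lists held 46 WNT, 35 BMP and 14 hedgehog genes, and marker lists covered dopaminergic, serotonergic, GABA and glutamate neurons, the oligodendrocyte lineage (mature cells and precursors), astrocytes, microglia, and endothelial, mural, fibroblast, ependymal and choroid plexus cells. A result that the naming rule selects is not reported here.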

Additional observations from a re-analysis of the deposited data

Results flagged for a closer look

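Dixon's ratio on log2(CPM + 1) was taken in 260 combinations of a member and a group with a mean of at least 1 CPM. In 18 of them a library stood apart from the rest of its group, the highest in 12 cases and the lowest in 6. The cut-offs used mark about 1 in 20 for normally distributed values. That rate does not hold for groups that reached 1 CPM through the marked library, such as Wnt11 in wt 5HT at 4 months (6.51 CPM in S369, others 0).

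In wt mDA at 8 months, replicate C250, the library with the lowest total in the series (1644460 counts), stood apart in 4 members. It had 10.5 CPM of Wnt3a (others 0 to 1.98), 27.0 CPM of Bmp2 (others 1.04 to 5.38), 0 CPM of Sfrp4 (others 2.25 to 7.30) and 2.75 CPM of Ptch1 (others 7.48 to 15.3). In the same group D107 had 9.25 CPM of Wnt11 (others up to 1.98) and D147 had 21.4 CPM of Sfrp1 (others up to 3.34). In wt mDA at 4 months D295 had the lowest Dkk3, 36.1 CPM (others 77.1 to 145).

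Among mDA mutants, D161 had 7.59 CPM of Wnt1 (others up to 0.517) and D170 had 5.37 CPM of Wnt8b (others up to 1.01) at 8 months, and D187 had 0.496 CPM of Wnt10b (others 4.49 to 12.8) at 4 months.

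In wt 5HT at 4 months S374 had 0.180 CPM of Wnt5b (others 5.32 to 7.70), S369 had 6.51 CPM of Wnt11 (others 0) and S373 had 5.49 CPM of Wnt16 (others up to 0.359). In wt 5HT at 8 months S383 had 5.20 CPM of Wnt9a (others up to 0.416) and S382 had 3.98 CPM of Bmp2 (others up to 0.208). In 5HT mutants at 4 months S425 had 0 CPM of Wnt9b (others 2.82 to 4.01), and S427 had 11.6 CPM of Rspo4 (others up to 0.187) and 5.62 CPM of Bmp3 (others 0).

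The genotype effect on Wnt5a in mDA neurons differed between 8 and 4 months by 1.83 (log2, with SE 0.25 and an adjusted p of 9.87e-06 from the edgeR fit of all mDA libraries).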

How the results depend on the processing

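The call of Wnt5a in mDA at 8 months held under 8 other settings (log2 fold change 1.5 to 1.71) and without each of the 16 libraries (1.62 to 1.79), and its difference between months under 6 settings (1.69 to 1.85) and without each of the 35 libraries (1.75 to 1.94). Leaving out C250 or D833, the wt libraries of set3 at 8 months, could hardly move the 8-month estimate, since the set term takes them up. With no filter on low counts 2 members were called at 8 months, Wnt5a and Wnt6. DESeq2 called 1 member in 5HT at 4 months (Wnt10b), and between neuron types 3 at 4 months and 1 at 8 months, where edgeR called 0. Leaving out 1 5HT library gave 0 to 1 members at 4 months between types: Rspo1 without S367, Wnt10b without S369 and Bmp7 without S425 or S427. Between wt types the count of 12 was 12 with RLE scaling, 14 without the filter, 13 with DESeq2, 8 with sex fitted within neuron type, 8 within set1 and 9 to 14 when 1 library was left out, while the count over all genes went from 3513 to 2845 with sex fitted within neuron type and 1996 within set1. No called result changed sign under the settings run. The cause of these shifts was not tested. DESeq2 and set1 alone between neuron types, and leaving out wt or 5HT libraries there, were chosen after seeing the data. Sex within neuron type was the form first run between wt types. The change to 1 sex term, the covariate set out in the design, was made after both results were seen. It gave 12 members in place of 8. The mDA libraries were not left out for the difference between types.

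In mDA at 4 months 181 genes became 1502 within set1 alone, 8 within set2, 69 within set3, 20 without the 4 set1 mutants, 57 without the set term, 352 with DESeq2 and 78 to 485 without 1 library (485 without C213, 332 without C214, 78 without D296). In set1 at 4 months all mDA mutants were female and all wt male, and in set3 the sexes were the other way round. Within either set alone, sex and genotype therefore cannot be told apart. At 8 months 666 became 393 without the sex term, 109 within set2 and 1060 with DESeq2, and 4.32% of genes became 2.74% with only the libraries compared. The difference between months, 6.11% of genes, became 0.998% without the sex term, 3.99% without the set term and 0.565% without the 4 set1 mutants, with 608 to 1309 genes when 1 library was left out. Between neuron types 17 genes at 4 months became 11 without the filter, 183 with DESeq2 and 7 to 66 without 1 library, and 35 at 8 months became 124 and, without 1 library, 15 to 35. In 5HT, DESeq2 called 48 and 28 genes where edgeR called 2 and 2 (4 months, and the difference between months), and 1.13% against 0.397% at 8 months. In 5HT at 8 months 199 genes were called with only the libraries compared, 30 to 49 without 1 library, and at 4 months 12 without the filter, 0 with only the libraries compared and 0 to 4 without 1 library. The difference between months in 5HT gave 5 genes without the filter. No paired analysis was possible because replicate numbers are not shared between groups. Depth limits the low members: 3 counts are worth 0.238 to 1.86 CPM across the libraries.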

Other observations

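Of the 24 members tested in both neuron types, 4 had a fitted difference above 0 in all 4 comparisons of mutant with wt (Chrd, Rspo1, Wnt3 and Wnt4, 16.7%) and 0 below 0 in all 4. Over all 14777 genes tested in both, 7.97% were above and 7.31% below in all 4. These 4 members were named after their values were seen, and edgeR called none of them in any comparison of mutant with wt. The sign was not stable: Rspo1 in mDA at 8 months was -0.96 within set2 alone and -0.01 with DESeq2, Wnt3 in 5HT at 8 months was -0.06 with only the libraries compared and just below 0 without the sex term, and Wnt4 in 5HT at 4 months was -0.02 without the sex term. Within set3 alone the 4-month mDA value of Chrd was -0.20 and that of Wnt4 -0.55, from 2 male mutants and 2 female wt. Sex and genotype cannot be told apart in these set3 values.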
